A study of Drosophila melanogaster with 12 samples.

Results

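The methionine cycle and the transsulfuration pathway were examined in whole adult male flies through 6 genes: Sam-S, Gnmt, Ahcy, AhcyL1, Cbs and Cth. Each gene was taken as the probe sets annotated to its symbol alone, and the probe set of a gene was chosen by its mean intensity over all 12 arrays, a value that does not use the groups. Each of the 6 has 1 such probe set, so nothing was dropped; those of Sam-S and Cbs carry the suffix s_at, which marks probes shared by several transcripts. All 6, of 11983 genes named on the array, passed the filter on low values that left 10418 genes for testing. The genes were listed with earlier results of these arrays known, so their counts are descriptions and were given no list test.

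The flies were Canton-S males, a wild-type strain of Drosophila melanogaster, placed on their diet as young adults of 3 to 5 days. One set received a control diet and the other a high-sugar diet, for 2 days or for 4 weeks, and the flies were 5 to 7 or 31 to 33 days old when sacrificed. Each of the 4 groups held 3 Affymetrix arrays, labelled as biological replicates, and the sugar content of the diets and the number of flies per replicate are not given in the sources used here. Intensities are normalized and on a linear scale, so values are compared between groups for 1 gene and not between genes. Because RNA came from whole animals, fewer cells of a type and less RNA per cell cannot be told apart. Feeding time and age rise together in this design and cannot be told apart either.

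In the methionine cycle, S-adenosylmethionine synthetase (Sam-S) makes S-adenosylmethionine, the methyl donor of most methylation reactions. Methyltransferases use the donor and leave S-adenosylhomocysteine, which adenosylhomocysteinase (Ahcy) splits into homocysteine and adenosine. Glycine N-methyltransferase (Gnmt) uses the donor to turn glycine into sarcosine and is known in the fly fat body as a main route by which excess donor is removed. Homocysteine is either methylated back to methionine or passed to transsulfuration, where cystathionine beta-synthase (Cbs) and cystathionine gamma-lyase (Cth) convert it, with serine, into cysteine. AhcyL1 is a relative of Ahcy that is known in flies to act as its inhibitor.

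Gnmt, Ahcy and Cth were lower on the high-sugar diet when the diet effect was averaged over both feeding times, each by about the same amount. The call of Gnmt was kept in only 9 of 23 alternative fits, those of Ahcy and Cth in all 23. Cbs had a negative value of similar size that did not pass the test, Sam-S was nearly level, and AhcyL1 was level. At 4 weeks Ahcy, Cbs and Cth were higher than at 2 days on both diets. A difference of the diet effect between the feeding times was not detected for any of the 6.

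**Figure D1:**
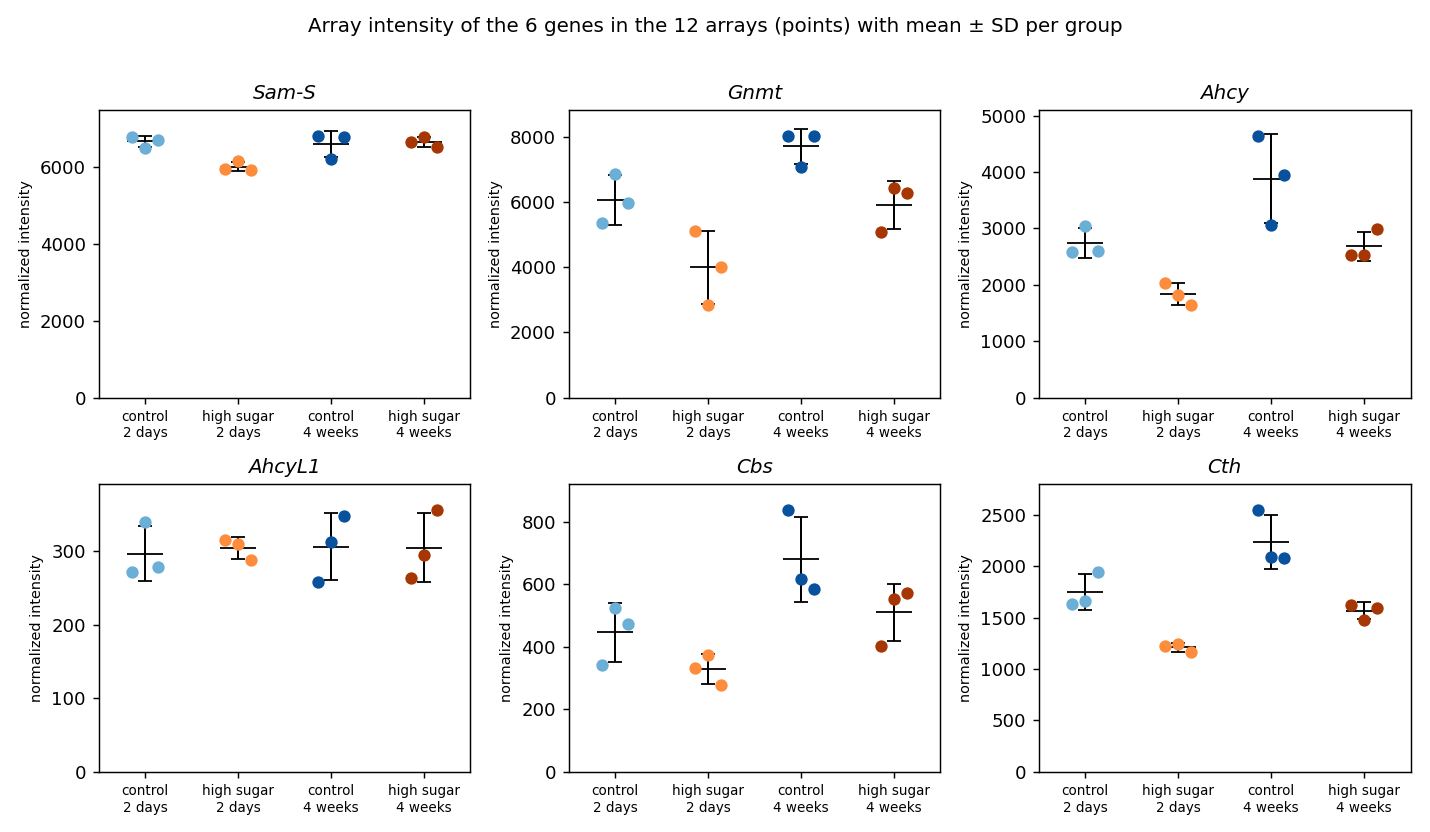
Normalized intensity (linear axis from 0) of each gene in the 4 groups; points are single arrays, and the bars give the mean and SD of 3 arrays. Gnmt, Ahcy and Cth have every high-sugar array below every control array at the same time, Gnmt narrowly so at 2 days. The AhcyL1 groups overlap throughout, between 259 and 356.

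Sam-S (gene 48552), the source of the methyl donor, varied least of the 6 genes over the 12 arrays, with slightly lower values on high sugar at 2 days. Its intensity was 6772, 6494 and 6703 in the control arrays at 2 days and 5947, 6135 and 5921 in the high-sugar arrays. All 3 high-sugar arrays lay below all 3 controls, yet the log2 fold change was only -0.15 with a standard error of 0.05 and did not pass (limma adjusted p = 0.4). At 4 weeks the values were 6793, 6196 and 6761 on control diet and 6642, 6764 and 6496 on high sugar. These groups overlapped, and the 95% confidence interval of the log2 fold change ran from -0.10 to 0.12. The average diet effect was -0.07 (95% confidence interval -0.15 to 0.01). High sugar at 2 days was therefore the lowest group, and the other 3 followed each other within their spread.

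Gnmt (gene 41561), the glycine methyltransferase, had lower values on high sugar at both times, with the widest spread at 2 days. The control arrays at 2 days read 5354, 6874 and 5986, and the high-sugar arrays 5113, 2856 and 4016. At 4 weeks the control arrays read 8019, 7086 and 8032, and the high-sugar arrays 5076, 6420 and 6280.5. At neither time did the diets overlap, although at 2 days the highest high-sugar array came close to the lowest control. The log2 fold change was -0.64 with a standard error of 0.17 at 2 days (limma adjusted p = 0.243) and -0.39 at 4 weeks (limma adjusted p = 0.229), so neither time passed alone. Averaged over both times Gnmt fell by 0.51 on the log2 scale (standard error 0.12, limma adjusted p = 0.0386), that is, intensity fell by 29.8%. This call was lost in 14 of 23 alternatives (adjusted p up to 0.106), while the fold change stayed between -0.61 and -0.40. Among them were quantile normalization, no filter and 8 of the 12 arrays left out singly, namely control arrays 2 and 3 and high-sugar array 3 at 2 days, control arrays 1 and 3 at 4 weeks, and each high-sugar array at 4 weeks.

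Ahcy (gene 32471), the hydrolase that clears S-adenosylhomocysteine, had lower values on high sugar by nearly the same amount at both times. It read 2584, 3052 and 2606 on control diet and 2035, 1825 and 1637 on high sugar at 2 days. At 4 weeks it read 4641, 3067 and 3954 on control diet and 2537, 2523 and 2986 on high sugar. Every high-sugar array was below every control array of its time, but at 4 weeks control array 2 came close to the high-sugar arrays. The log2 fold change was -0.59 at 2 days (limma adjusted p = 0.18) and -0.52 at 4 weeks (limma adjusted p = 0.0758), each with a standard error of 0.14. The average diet effect was -0.55 with a standard error of 0.10 and passed (limma adjusted p = 0.0108), and intensity fell by 31.8%. Ahcy kept this call in all 23 alternatives (adjusted p up to 0.0412). Without control array 2 at 4 weeks the call at 4 weeks was made as well (log2 fold change -0.68, adjusted p = 0.0139).

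AhcyL1 (gene 38342), the inhibitory relative of Ahcy, had nearly equal means in all 4 groups. Its intensity was 272, 340.4 and 278 on control diet and 316, 311 and 288 on high sugar at 2 days, then 259, 313 and 348 on control diet and 263, 295 and 356 on high sugar at 4 weeks. All 4 groups overlapped, and none of the neighbours in their order differed beyond their spread. The average diet effect was 0.02 on the log2 scale, with a 95% confidence interval of -0.20 to 0.23. The difference between AhcyL1 and Ahcy was not tested. AhcyL2, the other relative of Ahcy, had an average diet effect of 0.07 (95% confidence interval -0.10 to 0.25).

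Cbs (gene 33081), which opens transsulfuration, varied more between arrays than Cth. The control arrays at 2 days read 342, 526 and 473 and the high-sugar arrays 331, 375 and 279, so these groups overlapped. At 4 weeks the control arrays read 838, 619 and 585 and the high-sugar arrays 404, 554 and 573, without overlap. The log2 fold change was -0.43 at 2 days and -0.41 at 4 weeks, each with a standard error of 0.19, and neither passed (limma adjusted p = 0.577 and 0.256). Averaged over both times it was -0.42 with a 95% confidence interval of -0.72 to -0.13 and still did not pass over all genes (limma adjusted p = 0.121). Cbs was not called for diet in any alternative.

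Cth (gene 37143), which releases cysteine, gave the most precise diet effect of the 6 genes relative to its size. It read 1636, 1662 and 1950 on control diet and 1225, 1247 and 1164 on high sugar at 2 days. At 4 weeks it read 2547, 2094 and 2083 on control diet and 1629, 1474 and 1598 on high sugar. The groups were well apart at both times. Their means were 1749 ± 174 against 1212 ± 43.2 at 2 days and 2241 ± 265 against 1567 ± 82.2 at 4 weeks (SD, n = 3 arrays each). At 2 days the log2 fold change was -0.53 (standard error 0.10) and narrowly missed the threshold (limma adjusted p = 0.0669), and at 4 weeks Cth fell by 0.51 (standard error 0.10, limma adjusted p = 0.0229). The 4-week call was lost without any of 3 arrays of 4 weeks, control array 1 (adjusted p = 0.0528) and high-sugar arrays 2 (0.108) and 3 (0.0695), and with only the 6 arrays compared (0.0727). The average diet effect of -0.52 (standard error 0.07, limma adjusted p = 0.00212) passed in all 23 alternatives, and by its p-value Cth ranked 35 among 10418 genes.

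As counts, 0 of the 6 genes passed for diet at 2 days by limma. Of all genes tested 0.144% were lower and 0% higher. Without adjustment 5 of the 6 had a limma p under 0.05 at 2 days. So did at least 822 of the 10418 genes tested, as the gene at rank 822 by p (Art9) had 0.0465. At 4 weeks 1 of 6 was lower and 0 higher, against 1.12% lower and 0.806% higher of all genes. For the average diet effect 3 of 6 were lower and 0 higher, against 1.73% lower and 0.893% higher of all genes. Groups without overlap, lower on high sugar, were found for 4 genes at 2 days, where 7.65% of all genes were so and 6.58% lay the other way. There were 4 at 4 weeks (9.79% of all genes, and 13.5% the other way) and 3 at both times (1.78%, and 2.07% the other way). The median log2 fold change of the 6 was -0.48 at 2 days, -0.40 at 4 weeks and -0.47 on average, against -0.004, 0.01 and 0 over all genes.

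**Figure D2:**
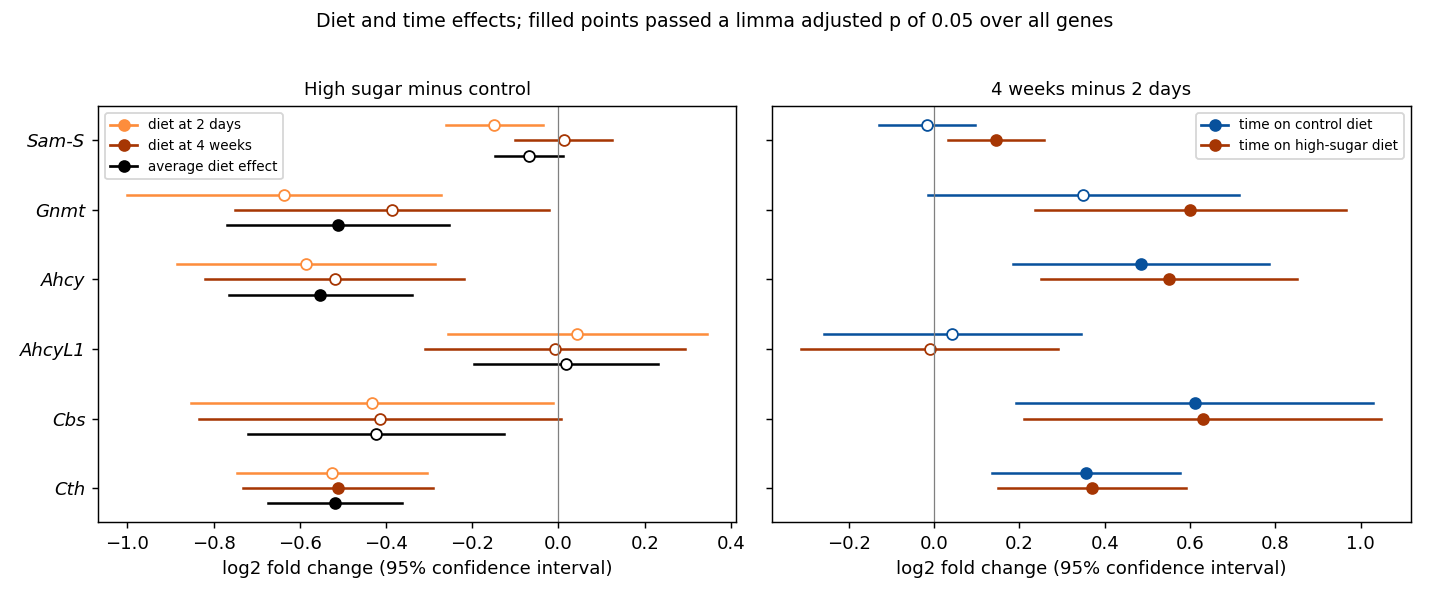
Log2 fold changes with 95% confidence intervals, for high sugar minus control (left) and for 4 weeks minus 2 days (right); filled points passed a limma adjusted p of 0.05. Gnmt, Ahcy and Cth have filled points for the average diet effect at -0.51, -0.55 and -0.52, while AhcyL1 sits at 0 in every comparison to within its interval.

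Whether the diet effect changed between 2 days and 4 weeks was tested directly as the difference of the effects at the 2 times. For Cth the difference was 0.01 with a 95% confidence interval of -0.30 to 0.33, for Cbs 0.02 (-0.57 to 0.61) and for Ahcy 0.07 (-0.36 to 0.49). Gnmt had 0.25 (-0.26 to 0.77) and AhcyL1 -0.05 (-0.48 to 0.37). Sam-S had the narrowest interval, 0.16 (0.0026 to 0.32), and an unadjusted p of 0.0469. By limma 0 of the 6 passed (0% of all genes did, while 7.27% had an unadjusted p under 0.05). For all 6 genes the interval is wider than the average diet effect itself, which limits what 3 arrays a group can show of a change with time.

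With time Ahcy, Cbs and Cth rose on both diets, and Gnmt and Sam-S passed on high sugar alone; whether the effect of time differed between diets is the same test as the difference of the diet effects, which none of the 6 passed. On control diet Cbs rose from 447 ± 94.6 at 2 days to 680.3 ± 137 at 4 weeks (SD, n = 3 each), or by 0.61 on the log2 scale (standard error 0.19, limma adjusted p = 0.0289). Ahcy rose by 0.48 (limma adjusted p = 0.0185) and Cth by 0.36 (limma adjusted p = 0.0186). Gnmt had 0.35 without passing (limma adjusted p = 0.125), although its groups did not overlap. The values of Sam-S (-0.02) and AhcyL1 (0.04) lay within their errors, and Sam-S became 0.14 and passed after quantile normalization (adjusted p = 0.0393). In sum 3 of 6 rose and 0 fell on control diet, against 14.3% higher and 18.8% lower of all genes. The arrays of 4 genes lay higher without overlap, as did those of 20.3% of all genes, while 25.1% lay lower. Leaving out array 1 of either control group ended all 3 calls (adjusted p up to 0.127), no filter ended that of Cbs, and a fit on only the 6 arrays compared ended that of Cth. Those of Ahcy and Cbs were also lost without control array 3 at 2 days, and that of Cth without control array 2 at 2 days.

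On high-sugar diet Ahcy, Cbs and Cth had values of like size to those on control diet, and 5 of 6 rose with time and 0 fell, against 19.9% higher and 22.7% lower of all genes. The arrays of 4 genes lay higher without overlap, against 28.6% of all genes, and 26.5% lay lower. Gnmt rose from 3995 ± 1129 to 5926 ± 739 (SD, n = 3 each; log2 fold change 0.60, standard error 0.17, limma adjusted p = 0.0123), with groups that overlapped narrowly. Cbs rose by 0.63, Ahcy by 0.55 and Cth by 0.37, with no overlap between arrays for any of them (limma adjusted p = 0.0196, 0.00702 and 0.0113). Sam-S rose by 0.14 (standard error 0.05, limma adjusted p = 0.0393), a call lost in 11 of 24 alternatives (adjusted p up to 0.142), among them the leaving out of control array 1 or 3 at 2 days or of any high-sugar array. The calls of Gnmt, Ahcy and Cth on high sugar were kept in all 24. That of Cbs was lost when array 3 of 2 days or array 2 or 3 of 4 weeks was left out (adjusted p up to 0.0762).

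The values for diet and for time had opposite signs in Gnmt, Ahcy, Cbs and Cth. The highest and lowest groups were the same for all 4 genes: control diet at 4 weeks was highest and high sugar at 2 days lowest. In between, long high-sugar feeding left Gnmt at 97.6% and Ahcy at 97.6% of their mean intensity on control diet at 2 days, differences smaller than the SD of either group. Cth was at 89.6% and Cbs at 114%, and for Cbs these groups overlapped. The arrays that were extreme differed by gene: Gnmt was lowest in high-sugar array 2 at 2 days (2856), whereas Ahcy (1637), Cbs (279) and Cth (1164) were lowest in array 3 of the same group. Control array 1 at 4 weeks was the highest of the 12 for Ahcy, Cbs and Cth.

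Markers of tissues were set beside these values. Of the 10418 genes tested, at least 822 had an unadjusted limma p under 0.05 for diet at 2 days. At 4 weeks there were at least 1796, as the gene at that rank by p (Gnmt) had 0.0395. On average there were at least 1885, with Odc2 at that rank (0.044). All 9 accessory gland and all 15 testis markers were on the array with none at the low limit in every array of a group. The 9 female markers summed to an intensity of 205 to 370.3 over all arrays, where a lower limit of 11.8 was applied before testing. The highest of the 9 were the yolk protein genes Yp3, at 68.4 to 127, and Yp1, at 5.93 to 125 with a mean of 13.1 on control diet at 2 days and 84.2 at 4 weeks. The lowest were Yp2 (at most 11.9) and the chorion gene Cp16 (at most 4.30). Of 4 female markers tested, 1 was higher with time on each diet (14.3% of all genes on control diet and 19.9% on high sugar). For diet 0 of the 4 passed by limma (on average 2 had an unadjusted p under 0.05). Fat body markers, the tissue in which Gnmt is known to be abundant, summed (8 of 11 on the array) to 33844 to 35806 on control diet and 34075 to 34396 on high sugar at 2 days. At 4 weeks they summed to 33521 to 37447 and 37518 to 37818. Of these 8 markers 0 passed by limma for diet at 2 days, at 4 weeks or on average (1, 3 and 5 of them had an unadjusted p under 0.05), with medians of -0.04, 0.03 and 0.01 (log2) where the 6 genes had -0.48, -0.40 and -0.47. The fat body markers moved in both directions on high sugar at 4 weeks. By group mean AkhR was at 1073 against 476 on control diet, Lsd-1 5526 against 3658, Apoltp 2946 against 2454 and FASN1 13152 against 12636. Mtp was at 1099 against 1469, mdy 684 against 840, Lpin 1766 against 2029 and apolpp 11374 against 11443. FASN1 and apolpp make up most of the sums. None of these markers was at the low limit throughout a group.

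Midgut markers (9 of 10 on the array) summed to 59282 to 64988 on control diet and 56369 to 59301 on high sugar at 2 days, and to 60105 to 70233 and 44181 to 52423 at 4 weeks. Of these, 0 passed by limma at 2 days (1 with an unadjusted p under 0.05), 4 were lower at 4 weeks and 3 on average (8 with an unadjusted p under 0.05 in each), with medians of -0.07, -0.25 and -0.16 (log2). Of all genes 1.12% were lower at 4 weeks and 1.73% on average. On high sugar the midgut list had 5 lower and 1 higher with time, against 22.7% lower and 19.9% higher of all genes. Over time on control diet all 10 muscle markers, all 9 accessory gland markers and 9 of 14 testis markers tested were lower, as were 5 neuron markers, while of the fat body markers 2 were higher and 1 lower. Of all genes 18.8% were lower and 14.3% higher over time on control diet. The summed accessory gland level was 79635 to 91439 in the arrays of 2 days and 41248 to 54667 in those of 4 weeks, and the muscle level 31519.5 to 38880.3 and 15560 to 19750. Testis markers summed to 41176 to 46532 at 2 days and 30650.2 to 37029 at 4 weeks. Neuron markers (10 of 11 on the array, 9 tested) summed to 4479 to 4841 on control diet and 4645 to 5273 on high sugar at 2 days, and to 2859 to 3534 and 4117 to 4311 at 4 weeks. For diet 1 neuron marker was higher at 4 weeks, as were 0.806% of all genes. At that time 6 neuron markers had an unadjusted p under 0.05 and their median was 0.32 (log2). For diet 0 of the testis, accessory gland and muscle markers passed by limma at either time or on average (on average 4, 1 and 2 had an unadjusted p under 0.05, and at 4 weeks 6, 0 and 2). Of the 10418 genes tested, at least 1885 had such a p on average and at least 1796 at 4 weeks. On high sugar 11 testis, 9 accessory gland, 9 muscle and 3 neuron markers were lower with time and 3 fat body markers higher. For this contrast 22.7% of all genes were lower and 19.9% higher. The part of these tissue markers in the changes of the 6 genes was not tested.

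Around the cycle, Sardh, sarcosine dehydrogenase, which oxidizes the product of Gnmt, was the 1 of 5 further methionine cycle genes that changed with diet. Of all genes 1.12% were lower at 4 weeks and 1.73% on average. Sardh read 252, 137 and 279.95 on control diet and 93.8, 109 and 83.7 on high sugar at 4 weeks, a log2 fold change of -1.17 (standard error 0.27, limma adjusted p = 0.0444). At 2 days Sardh read 207, 190 and 110 on control diet and 113, 92.0 and 86.3 on high sugar, with overlap. The value at 2 days was -0.75 and did not pass (limma adjusted p = 0.409). On average it had -0.96 (limma adjusted p = 0.0171), a call lost with no filter (0.0667) and without high-sugar array 3 at 2 days (0.0504). The 4-week call was lost in 14 of 24 alternatives (adjusted p up to 0.163). The homocysteine methyltransferase gene Bhmt (0.05), AhcyL2 (0.07), CG7560 (-0.18) and CG10621 (-0.25) did not pass on average. CG7560 rose with time, by 0.61 on control diet and 0.78 on high sugar (limma adjusted p = 0.0151 and 0.00276), the first lost in 3 of 24 alternatives and the second in 0.

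**Figure D3:**
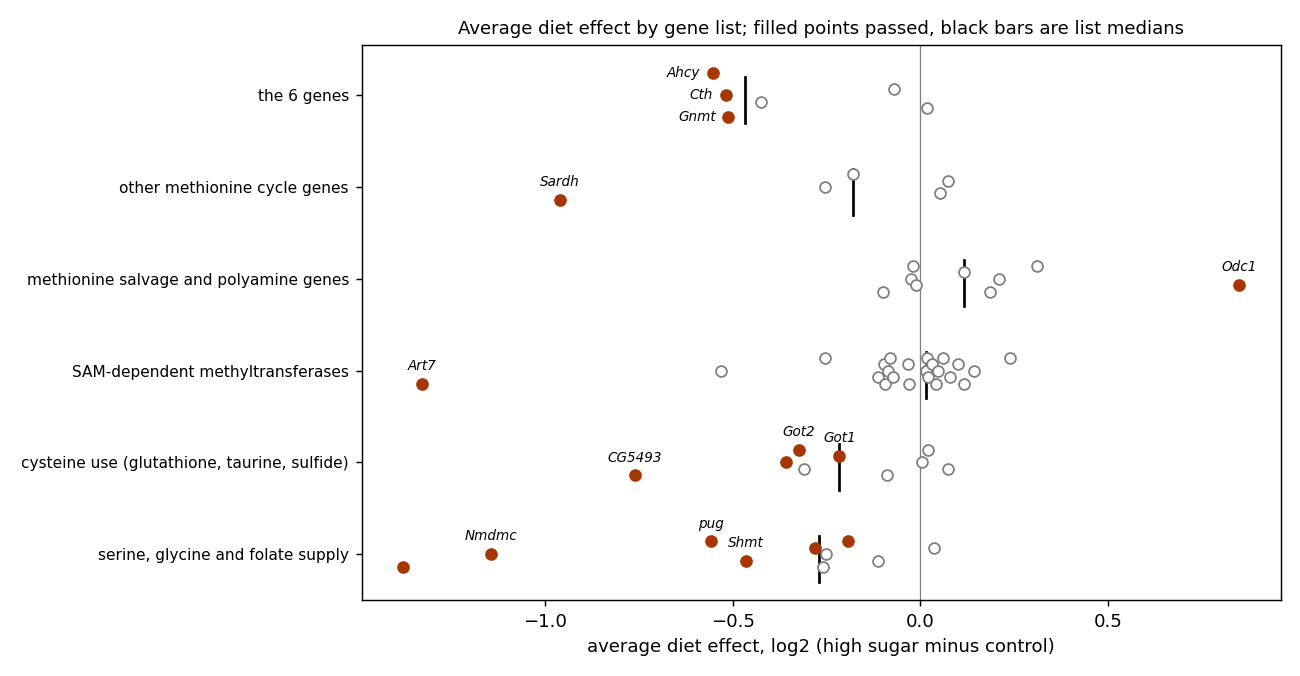
Average diet effect (log2, high sugar minus control) of every tested gene of the 6 and of 5 related lists; filled points passed a limma adjusted p of 0.05 and black bars are list medians. The filled points lie left of 0 in all lists except that of methionine salvage and polyamines, where Odc1 is at 0.85.

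Of 10 tested genes of serine, glycine and folate metabolism (11 listed), 6 were lower and 0 higher on average, with a median of -0.27. Of all genes 1.73% were lower and 0.893% higher. At 2 days 1 of the 10 was lower and at 4 weeks 3, against 0.144% and 1.12% of all genes. Shmt, serine hydroxymethyltransferase, which interconverts serine and glycine, passed at 2 days (-0.56, limma adjusted p = 0.0292), at 4 weeks (-0.37, 0.0418) and on average (-0.46, 0.00146). The folate enzyme gene pug had an average of -0.56 (limma adjusted p = 0.000714) and Nmdmc, a mitochondrial folate dehydrogenase, -1.14 (0.00428). With time 2 rose on control diet and 5 on high sugar (14.3% and 19.9% of all genes), among them CG11899 (0.68 and 1.09), pug (0.36 on control diet) and aay, a phosphoserine phosphatase gene of serine synthesis (0.66 on high sugar). CG3999 had -1.49 at 4 weeks (limma adjusted p = 0.0279), where its control arrays spread from 242 to 815 and its high-sugar arrays from 141 to 163. The calls of Shmt at 2 days and 4 weeks were lost in 10 and 11 of 24 alternatives (adjusted p up to 0.147 and 0.142), and that of CG3999 in 8 (up to 0.109), while those of pug at 4 weeks and of pug, Shmt and Nmdmc on average were kept in all.

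Downstream of cysteine, 4 of 9 tested genes (12 listed) were lower on average and 0 higher, against 1.73% lower and 0.893% higher of all genes. The list median was -0.22. Got2 and Got1, transaminases that can also act on cysteine sulfinate, had -0.32 and -0.22 (limma adjusted p = 0.0019 and 0.0157). CG5493 had -0.76 (limma adjusted p = 0.0157) and CG30022 -0.36 (0.027). The average call of Got1 was lost in 2 of 23 alternatives (adjusted p up to 0.0831) and that of CG5493 in 1 (0.0588), while that of Got2 was kept in all. With time 4 rose on control diet and 5 on high sugar, against 14.3% and 19.9% of all genes. Among them CG30022 (0.77 on control diet and 0.57 on high sugar) and CG5493 (1.34 and 1.51) rose on both diets. Gclc and Gclm, the subunits of the enzyme that commits cysteine to glutathione, had average diet effects of 0.0046 and 0.07 and did not pass. With time Gclc rose by 0.48 on control diet and 0.28 on high sugar (limma adjusted p = 0.00289 and 0.0301). Gclm rose by 0.48 on high sugar (limma adjusted p = 0.0155) and did not pass on control diet (0.17, 0.367). Nfs1, the cysteine desulfurase of iron-sulfur cluster assembly, had 0.02 for diet on average and rose with time, by 0.56 on control diet and 0.84 on high sugar (limma adjusted p = 0.000456 and 2.81e-05). The call of Got2 at 2 days (-0.36, limma adjusted p = 0.0491) was lost in 13 of 24 alternatives (adjusted p up to 0.24) and that at 4 weeks (-0.29, 0.0322) in 7 (up to 0.137).

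Of other users of S-adenosylmethionine, 1 passed for diet. Among 23 tested methyltransferase genes (30 listed), 1 was lower on average and 0 were higher, with a list median of 0.02. Of all genes 1.73% were lower and 0.893% higher. The lower gene was the arginine methyltransferase gene Art7 (-1.33, limma adjusted p = 0.00164). Its arrays read 145, 91.7 and 168 on control diet and 35.1, 29.6 and 33.3 on high sugar at 2 days. At 4 weeks its value of -0.65 did not pass (limma adjusted p = 0.173), and the difference of the effect between times, 1.35, did not pass either (adjusted p = 0.542). Art7 rose with time, by 1.17 on control diet and 2.52 on high sugar. With time 5 of the 23 methyltransferase genes rose and 1 fell on each diet, a share of risers near that of all genes (14.3% on control diet and 19.9% on high sugar). Of all genes 18.8% were lower on control diet and 22.7% on high sugar. Risers on both diets included jhamt, which makes juvenile hormone (0.79 on control diet and 0.68 on high sugar), and the histone methyltransferase gene E(z) (0.45 and 0.66). The gene that fell was Coq3 of ubiquinone synthesis (-0.28 and -0.31, lost in 12 and 3 of 24 alternatives).

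Of 9 tested genes of methionine salvage and polyamine synthesis (10 listed), 1 rose with diet and 0 fell, on average and at 4 weeks. Of all genes 0.893% were higher and 1.73% lower on average, and 0.806% and 1.12% at 4 weeks. Odc1, ornithine decarboxylase, which starts polyamine synthesis, read 597.5, 670.1 and 599 on control diet and 975, 1047 and 922 on high sugar at 2 days. At 4 weeks it read 367, 369 and 553 on control diet and 715, 967 and 944 on high sugar. No high-sugar array lay below a control array of the same time, and the average diet effect was 0.85 (standard error 0.11, limma adjusted p = 0.00186); it passed at 4 weeks (1.04, limma adjusted p = 0.00753) and not at 2 days (0.66, 0.192). On control diet Odc1 fell with time by 0.56 (limma adjusted p = 0.0187), lost in 3 of 24 alternatives. SamDC, which draws S-adenosylmethionine into polyamines, had -0.10 and did not pass. The spermine synthase gene Sms fell with time, at -1.09 (log2) on either diet, and Adi1 of methionine salvage rose by 0.36 and 0.29. SpdS rose by 0.37 on control diet, a call lost in 11 of 24 alternatives, and Odc2 by 0.55 on high sugar, lost in 6 of 23.

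Across the 10418 genes, likeness of pattern was measured as the root mean square difference, over the 12 arrays, between log2 profiles centred on each gene's mean. For Cth the nearest were Prat2, an enzyme gene of purine synthesis (0.09), and Shmt (0.11), against a spread of 0.33 of Cth's own profile around its mean. For Ahcy they were CG15784 (0.12) and Pfas of purine synthesis (0.15), with Cth at position 6 (0.17) and an own spread of 0.41. For Cbs the nearest was Ahcy (0.20), followed by CG15784 (0.20), and for Gnmt the maltase gene Mal-A2 (0.16) and the P450 gene Cyp6w1 (0.17), with Ahcy at position 9 (0.20). Other pairs of these genes stood further apart in the order. From Cth, Ahcy was at position 14, Cbs at 205 and Gnmt at 263. From Gnmt, Cth was at 64 and Cbs at 204. From Cbs, Cth was at 23 and Gnmt at 114, and from Ahcy, Cbs was at 23 and Gnmt at 30. Sam-S, whose own spread was 0.07, was nearest to Rtc1 (0.05) and cathD (0.05), and Ahcy stood at position 8263 from it. Small differences are easily reached by genes that vary little, so these distances are read only within a gene's own order.

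**Figure D4:**
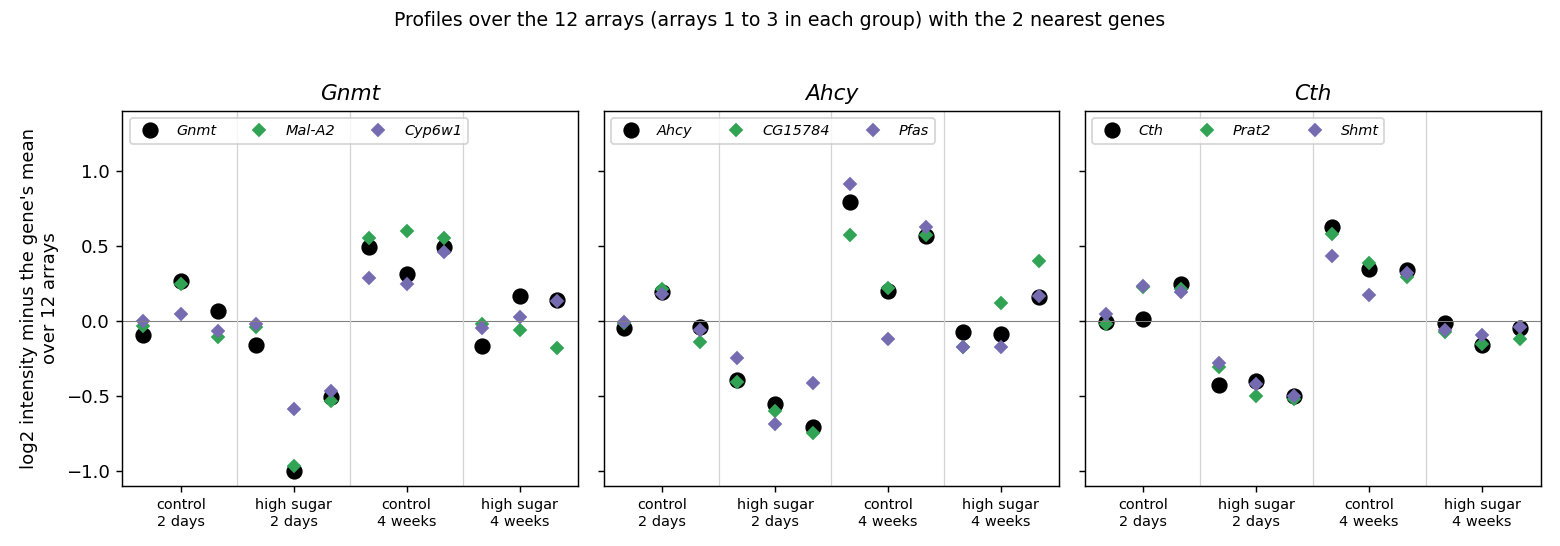
Log2 intensity minus the gene's mean over 12 arrays, for Gnmt, Ahcy and Cth (black circles) and their 2 nearest genes each (diamonds); within a group, arrays 1 to 3 stand from left to right. Prat2 and Shmt stay close to Cth in all 4 groups, with root mean square differences of 0.09 and 0.11.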

How the data were processed

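Per the series text, the authors used dChip (2006 version) and its match/mismatch algorithm to extract probe set values from Affymetrix arrays and to normalize them. Deposited values are linear intensities, from 1 to 16579.5, with array medians of 86.97 to 93.42; the reference array and detection calls are not given in the sources used here. Pearson's r across genes between arrays of a group was 0.984 to 0.993.

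Values under the pooled 20th percentile (11.8) were set to it and log2 transformed. Control probe sets (100) were left out, as were the dimmest 30% by mean, those under log2 4.30. In the supplied annotation 13647 probe sets carried 1 gene symbol, 402 carried several and 4720 carried none; symbols were updated by gene ID, matched for 13544. The highest-mean probe set per gene left 10418 genes.

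For 6 contrasts, limma 3.58.1 (R 4.3.3) was fitted on all 12 arrays by lmFit and eBayes with a trend, with Benjamini-Hochberg adjustment over all genes and a threshold of 0.05. Exact tests of 3 against 3 arrays cannot go below p = 0.1 and were not run. The members, lists and tests were chosen with earlier results of these data known. Pathway genes were named by smallest adjusted p among those past the threshold, up to 3 a direction for diet and 2 for time; the 5 further methionine cycle genes were all named. Of 68 listed pathway genes 56 were tested, and Csad matched no single gene. Alternatives were other normalizations, floors, filters and eBayes settings, the mean of all probe sets of a gene, weights per array, fits on only the arrays in a comparison, a block for the replicate number, and each array left out. In data simulated for diet at 4 weeks over 10418 genes the fit recovered 40.0% of changes of log2 0.5, 87.5% at 1 and 98.5% at 2, with 4.69% of calls false. Each gene was drawn independently from a normal distribution, with 200 genes changed in the high-sugar group of 4 weeks. Without correlation between genes or an effect of time, these rates need not hold for the real arrays. The median standard error of a 2-group log2 fold change was 0.13. Figures used Python 3.11.15 and matplotlib 3.10.9. No sequences of these genes were used here.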

Additional observations from a re-analysis of the deposited data

How the results depend on the processing

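Of the 6 genes, the number past the threshold for diet at 4 weeks dropped from 1 to 0 with only the arrays compared, a fit with fewer samples, and that for time on control diet went from 3 to 5 after quantile normalization, for which the cause was not tested. Leaving out 1 array gave 0 to 1 for diet at 2 days, 0 to 2 for diet at 4 weeks, 2 to 3 for the average diet effect, 0 to 4 for time on control diet and 3 to 5 for time on high sugar. The other alternatives kept each count within 1.5 times. With the replicate number as a block the counts were 0, 1 and 2 for diet at 2 days, at 4 weeks and on average, 0 for the difference, and 3 and 4 for time on control and high-sugar diet; Gnmt on average and Sam-S over time on high sugar lost their calls. Same-numbered arrays of different groups had deviations that correlated, across genes, at -0.23 to 0.15 (over 0.1 in 4 of 18 pairs), and 1 of 12 arrays correlated best with its own number throughout, so the numbers were not taken as pairs. The share of all genes called ranged from 0.0096% to 0.288% at 2 days, 0.787% to 2.78% at 4 weeks, 1.44% to 3.61% on average, 20.5% to 38.5% for time on control diet and 31.6% to 50.2% on high sugar.

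No called value of the 6 genes changed sign. Values that did, none of them past the threshold in the analysis reported, changed as follows. With array weights AhcyL1 at 4 weeks became 0.0222, and the differences of the diet effect for Cbs and Cth became -0.11 and -0.0397. Quantile normalization gave 0.14 for Sam-S over time on control diet and 0.0292 for AhcyL1 over time on high sugar, where centring on medians gave 0.0061. With 1 array left out, AhcyL1 ran from -0.0151 to 0.15 at 2 days, -0.13 to 0.0909 at 4 weeks, -0.0411 to 0.0687 on average, -0.0546 to 0.16 over time on control diet, -0.13 to 0.0895 over time on high sugar and -0.17 to 0.0469 for the difference. Likewise Sam-S ran from -0.0309 to 0.0355 at 4 weeks and -0.0402 to 0.0261 over time on control diet, and the differences for Ahcy, Cbs and Cth from -0.0945 to 0.20, -0.11 to 0.20 and -0.066 to 0.11. The cause was not tested. The number of arrays limits all of these, as n is 3 in each group.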
